A study of Mus musculus with 8 samples.

Results

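The genes of the proteasome subunits were followed in visceral white adipose tissue (vWAT) of KIKO and WT mice. They were taken by symbol, as the 38 protein-coding genes named *Psma*, *Psmb*, *Psmc* or *Psmd* with a number, among the 31053 genes of the count table. *Psmb8*, *Psmb9* and pseudogenes were left out by the rule. Of the 38 genes, 17 belong by name to the core particle and 21 to the regulatory particle. The symbol rule also takes *Psmc3ip*, which encodes a recombination protein and no subunit, and *Psmd5*, *Psmd9* and *Psmd10*, which encode chaperones that assemble the regulatory particle and leave it before it is mature. None of the 35 genes with enough counts passed the test between KIKO and WT mice, where 0.677% of all genes tested did. The smallest p was that of *Psma4*, a subunit of the alpha ring, at 106 ± 9.32 CPM (SD, n = 4) in the WT group and 146 ± 18.4 CPM (SD, n = 4) in the KIKO group (edgeR adjusted p = 0.0955), CPM being counts relative to the TMM-scaled library size.

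RNA of the epididymal depot, 1 library per mouse, came from 4 WT and 4 KIKO male C57BL/6 mice aged 8 months. KIKO (knock-in knock-out) mice, a model of Friedreich's ataxia, carry a knock-in and a knock-out allele of the targeted gene in every cell of the body. WT mice were littermates, and no treatment is named for either group. Each mouse is 1 sample, and the bulk tissue mixes adipocytes with vascular, immune and mesothelial cells, so more cells of a type and more RNA per cell cannot be told apart.

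The proteasome is the protease that degrades proteins tagged with ubiquitin. Its core particle is a barrel in which rings of alpha subunits, the gates, enclose rings of beta subunits, which hold the active sites. The regulatory particle binds ubiquitin, removes it, unfolds the substrate with a ring of ATPases and feeds it into the barrel. The transcription factor NRF1, encoded by *Nfe2l1*, raises the transcription of subunit genes together when proteasome activity falls short, and in brown fat this control is known to be needed for thermogenesis.

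The sequence that NRF1 and its relative NRF2 bind, the antioxidant response element, has the core TGACNNNGC. RefSeq promoters (GRCm38.p6, 250 bases before to 50 after the start site) were found for 31 of the 38 genes, in 33 promoters. There was none for *Psma8*, *Psmb1*, *Psmb2*, *Psmb7*, *Psmc3*, *Psmd3* and *Psmd7*. The core, read on both strands, was in 5 of the 33 promoters (15.2%), and in 12.4% of all 32851 promoters of this length. The 5 matches are shown because they are the only places in these windows with the letters of that element. Each is on the gene's strand with up to 10 bases on either side and the match in capitals, so a match on the opposite strand reads as its reverse complement.
*Psmb5*, chr14:54618024-54618052, minus strand: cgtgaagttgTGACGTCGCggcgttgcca
*Psmb6*, chr11:70525338-70525366, plus strand: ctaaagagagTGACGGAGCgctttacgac
*Psmd9*, chr5:123228149-123228177, plus strand: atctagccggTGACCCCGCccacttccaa
*Psmc6*, chr14:45329587-45329615, plus strand: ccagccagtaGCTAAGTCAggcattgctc
*Psmd12*, chr11:107479278-107479299, plus strand: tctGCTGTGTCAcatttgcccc
The matches of *Psmb5*, *Psmb6* and *Psmd9* began 47, 9 and 31 bases before the start site, and those of *Psmc6* and *Psmd12* lay 227 and 247 bases before it. A CCAAT box, read on both strands as CCAAT or ATTGG, was in 13 of the 33 promoters (39.4%) and in 37.4% of all promoters. Of the genes described with full values below, it was in those of *Psmd4*, *Psmd10*, *Psmd14* and *Psma6*. *Psma4*, the gene with the smallest p in the comparison below, had neither motif in its window (chr9:54950609-54950908, plus strand), which is shown whole with the bases after the start site in capitals.
*Psma4*: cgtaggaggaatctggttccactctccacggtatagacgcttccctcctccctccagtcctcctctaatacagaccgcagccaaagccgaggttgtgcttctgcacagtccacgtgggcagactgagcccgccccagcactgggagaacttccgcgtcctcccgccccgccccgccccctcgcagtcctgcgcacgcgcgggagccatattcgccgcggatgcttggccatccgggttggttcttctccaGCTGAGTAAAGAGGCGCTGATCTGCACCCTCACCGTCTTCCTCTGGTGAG

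Total counts ranged from 2936515 to 3119146 in WT and from 2602189 to 3478539 in KIKO mice. On the leading principal component of all genes WT mouse 3 had a score of 12.7, within the KIKO range of 3.74 to 24.4, while WT mice 1, 2 and 4 had -39.2 to -8.45. Levels relative to the mean of all mice followed transcript length, with a Spearman's rho above 0 in WT mice 1, 2 and 4 (0.110 to 0.259) and below 0 in WT mouse 3 (-0.107) and the KIKO mice (-0.212 to -0.0784). This rho is across genes, which are not independent replicates. Transcripts of the subunits are short, with a median of 1581 bases among those tested against 3187 bases for all genes tested. Among the cell type markers, the defining adipocyte gene *Adipoq* was at 3700 to 5360 CPM in WT mice and 5870 to 6920 CPM in KIKO mice. The groups did not overlap, KIKO higher, as in 3.89% of all genes tested. Its log2 fold change was 0.54 (edgeR adjusted p = 0.102). It passed in DESeq2 (adjusted p = 0.00349), where 4.78% of all genes with an adjusted p did. By RT-qPCR the paper reports the other direction, a lower *Adipoq* level in KIKO vWAT. None of 8 adipocyte markers passed the test described next, and 1 of 9 macrophage markers (*Lyz2*, higher in KIKO mice), 1 of 8 endothelial markers (*Robo4*, lower), 0 of 6 progenitor markers and 2 of 5 mesothelial markers (*Upk1b* and *Krt19*, higher) did. Like *Adipoq*, 4 other markers passed in DESeq2 only, all higher in KIKO mice: *Cfd*, *Cd68*, *Dcn* and *Lrrn4* (DESeq2 adjusted p = 0.00769, 0.0263, 0.00249 and 0.031). The groups of *Cd68* and *Dcn* did not overlap either. Only 1 of 4 lymphocyte markers (*Ms4a1*) and none of 6 epididymal epithelium markers had enough counts to be tested, and *Crisp1*, *Lcn5*, *Lcn8* and *Lcn9* of the epididymis were at 0 in every library. By list, 7 of 8 adipocyte markers lay above 0. The 8 together summed to 33881 to 40082 CPM in WT mice and to 44449 to 61766 CPM in KIKO mice. The largest term was *Cfd*, whose mean rose from 17978 (WT) to 29498 CPM (KIKO), a log2 fold change of 0.71. Those of *Lep*, *Plin1*, *Pparg*, *Lipe* and *Fabp4* were 0.06 to 0.31, and that of *Cidec* was -0.24. The sums therefore do not show a shift of the whole list. Of the endothelial markers, 8 of 8 lay below 0 (682 to 877 CPM in WT mice, 444 to 732 CPM in KIKO mice). The part of cell types in the subunit levels was not tested.

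Whether proteasome genes differ between KIKO and WT vWAT was asked with edgeR's quasi-likelihood test over the 11080 genes with enough counts, with Benjamini-Hochberg adjustment over all of them. The threshold was an adjusted p of 0.05, and genes below it are said to have passed. Of the 38 genes, 35 were tested, 15 of the core and 20 of the regulatory particle. No subunit gene passed, in either direction, where 0.677% of all genes tested did (0.280% higher and 0.397% lower in KIKO mice). At an unadjusted p under 0.05 there were 5 of the 35, where the share over all genes was 16.2%: the core genes *Psma4*, *Psma5*, *Psmb4* and *Psmb5* had higher means in KIKO mice (7.13% of all genes were at such a p on this side), and *Psmd11* of the regulatory particle had a lower one (9.06%). The adjusted p ranged from 0.0955 to 0.930 in the core and from 0.290 to 0.999 in the regulatory particle. In DESeq2, with an adjusted p for 12 core and 19 regulatory particle genes, 1 core gene (*Psma4*) and no gene of the regulatory particle passed, where 4.78% of all genes with an adjusted p did, and in limma-voom and limma-trend none of the 35 passed.

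The particles were read apart, and the difference between them was not tested. In the core particle 12 of 15 genes had a log2 fold change above 0, with a median of 0.21, and in the regulatory particle 12 of 20 did, with a median of 0.04. Of all genes tested 49.0% lay above 0, with a median of -0.01. With transcript length and GC content corrected for (the length and GC correction), 10 of 15 core genes and 9 of 20 regulatory particle genes lay above 0, and the medians were 0.11 and -0.03. This correction is fitted to each library without regard to genotype. It therefore also takes out any difference between the genotypes that follows length or GC content. With libraries scaled to their totals only, the core median was 0.14 and that of the regulatory particle was -0.03, beside -0.08 for all genes.

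**Figure D1:**
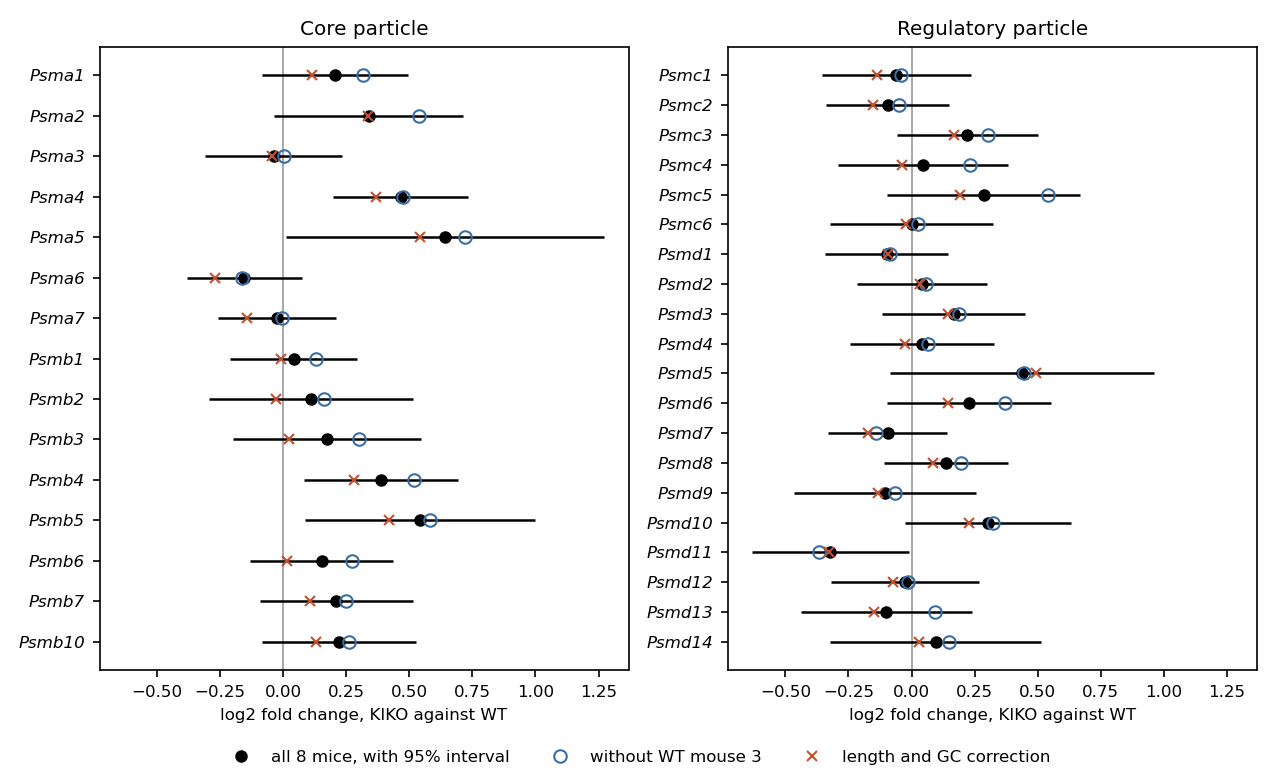
Log2 fold change of KIKO against WT mice (horizontal axis) for the 15 core and 20 regulatory particle genes tested. Black dots give the edgeR estimate and lines a 95% interval computed from its F statistic. Open circles give the estimate without WT mouse 3 and crosses that after the length and GC correction. The line stays clear of 0 for *Psma4*, *Psma5*, *Psmb4*, *Psmb5* and *Psmd11*, none of which had an adjusted p under 0.05.

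The size of change that these mice leave room for can be read from the 95% intervals, whose width on either side was 0.23 to 0.63 on the log2 scale. For 26 of the 35 genes (10 core and 16 regulatory particle) the interval lay within a 1.5-fold difference in both directions. The interval reached past a 1.5-fold higher level in KIKO mice for *Psma2*, *Psma4*, *Psma5*, *Psmb4*, *Psmb5*, *Psmc5*, *Psmd5* and *Psmd10*, and past a 1.5-fold lower level for *Psmd11*. The widest intervals were those of *Psma5*, *Psmd5* and *Psmb5*, the 3 with the fewest counts (19 to 79, 25 to 66 and 29 to 75 per library).

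The active sites of the core lie in *Psmb5*, *Psmb6* and *Psmb7*. *Psmb5* (ENSMUSG00000022193, chromosome 14 of GRCm38 from 54614119 to 54618022, minus strand) encodes the subunit with chymotrypsin-like activity, the target of proteasome inhibitors such as bortezomib. It had 9.19, 10.9, 14.1 and 18.1 CPM in WT mice 1 to 4 and 19.1, 18.4, 16.2 and 22.0 CPM in KIKO mice 1 to 4. WT mouse 4 lay above KIKO mouse 3 and the other WT mice lay below all KIKO mice. Its log2 fold change was 0.54 ± 0.21 (SE, edgeR adjusted p = 0.229).
*Psmb6*, which encodes the subunit with caspase-like activity, had 164, 166, 229 and 178 CPM in WT mice 1 to 4 and 228, 213, 190 and 187 CPM in KIKO mice 1 to 4. WT mouse 3 had the highest value of all mice, and the log2 fold change was 0.15 ± 0.13 (SE, edgeR adjusted p = 0.614). *Psmb7*, which encodes the subunit with trypsin-like activity, had 66.9, 76.0, 89.7 and 99.8 CPM in WT mice 1 to 4 and 86.5, 93.9, 111 and 92.6 CPM in KIKO mice 1 to 4. The groups overlapped, and the log2 fold change was 0.21 ± 0.14 (SE, edgeR adjusted p = 0.495). The gene overlaps *Nek6* on the other strand over 6571 bases, a gene with 1013 counts in all libraries together. *Psmb5* and *Psmb6* are 2 of the 5 genes with a match to the antioxidant response element core in the windows printed above.
*Psmb10* encodes the subunit that takes the place of that of *Psmb7* in the immunoproteasome, the form made by immune cells and under interferon. It had 51.7, 56.9, 60.6 and 56.3 CPM in WT mice 1 to 4 and 77.9, 49.6, 66.7 and 68.0 CPM in KIKO mice 1 to 4. KIKO mouse 2 was the lowest of all mice and the other KIKO mice were above all WT mice. The fitted log2 fold change was 0.22 ± 0.14 (SE, edgeR adjusted p = 0.474).

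Of the beta subunits without an active site, *Psmb4* (ENSMUSG00000005779, chromosome 3 from 94884093 to 94886961, minus strand), whose product is needed to complete the barrel, had 134, 163, 210 and 159 CPM in WT mice 1 to 4. In KIKO mice 1 to 4 it had 243, 225, 185 and 217 CPM. Only WT mouse 3 lay among the KIKO mice, above KIKO mouse 3. Its log2 fold change was 0.39 ± 0.14 (SE, edgeR adjusted p = 0.195). Leaving out WT mouse 3 necessarily widened the gap, to 0.52 (edgeR adjusted p = 0.0305, where 5.81% of all genes passed). The structural subunits *Psmb1*, *Psmb2* and *Psmb3* had log2 fold changes of 0.04, 0.11 and 0.17. All 8 beta subunit genes tested lay above 0 in edgeR with TMM scaling, while after the length and GC correction *Psmb1* and *Psmb2* lay below it (-0.01 and -0.03), and *Psmb1* also with library totals only (-0.02). *Psmb11*, the beta subunit of the thymus cortex, had no count in any library.

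The alpha ring held both of the subunit genes whose groups did not overlap, 2 of the 35 tested, where 8.45% of all genes did not overlap in 1 direction or the other. *Psma4* (ENSMUSG00000032301, chromosome 9 from 54950790 to 54958030, plus strand) had 92.2, 110, 108 and 113 CPM in WT mice 1 to 4 and 136, 147, 172 and 130 CPM in KIKO mice 1 to 4. All 4 KIKO mice were above all 4 WT mice, which 3.89% of all genes tested showed. The means given above stand for a log2 fold change of 0.47 ± 0.13 (SE, 95% interval 0.20 to 0.73). It passed in DESeq2 (adjusted p = 0.0196), where 4.78% of all genes with an adjusted p did. It also passed without WT mouse 3 (edgeR adjusted p = 0.0474), where 5.81% of all genes did. Over all 19 alternatives its log2 fold change was 0.37 to 0.52 and its adjusted p 0.0196 to 0.224. Its first 209 bases overlap *AY074887* on the other strand, a gene with 11 counts in all libraries together.
*Psma6*, named here after its values were seen, was the other. It had 144, 148, 145 and 154 CPM in WT mice 1 to 4 and 140, 133, 125 and 132 CPM in KIKO mice 1 to 4. All 4 KIKO mice were below all 4 WT mice, as in 4.56% of all genes tested, by a small margin. The estimated log2 fold change was -0.15 ± 0.11 (SE, edgeR adjusted p = 0.508).
*Psma5* (ENSMUSG00000068749, chromosome 3 from 108256926 to 108279974, plus strand) had 6.02, 10.6, 12.4 and 13.7 CPM in WT mice 1 to 4 and 9.24, 15.2, 25.6 and 16.4 CPM in KIKO mice 1 to 4. KIKO mouse 1 lay below 3 of the WT mice and the other KIKO mice above all of them. Its log2 fold change was 0.64 ± 0.30 (SE, edgeR adjusted p = 0.300), and ranged from 0.36 without KIKO mouse 3 to 0.84 without KIKO mouse 1. *Psma2* had a log2 fold change of 0.34 ± 0.18 (SE, edgeR adjusted p = 0.362). Leaving out WT mouse 3, the highest WT mouse, necessarily widened this gap, to 0.54 (edgeR adjusted p = 0.0476, where 5.81% of all genes passed). The *Psma2* gene overlaps *AW209491* on the same strand. *Psma1*, *Psma3* and *Psma7* had log2 fold changes of 0.21, -0.04 and -0.03. *Psma8*, the alpha subunit of male germ cells, had 0 to 3 counts per library and was not tested.

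**Figure D2:**
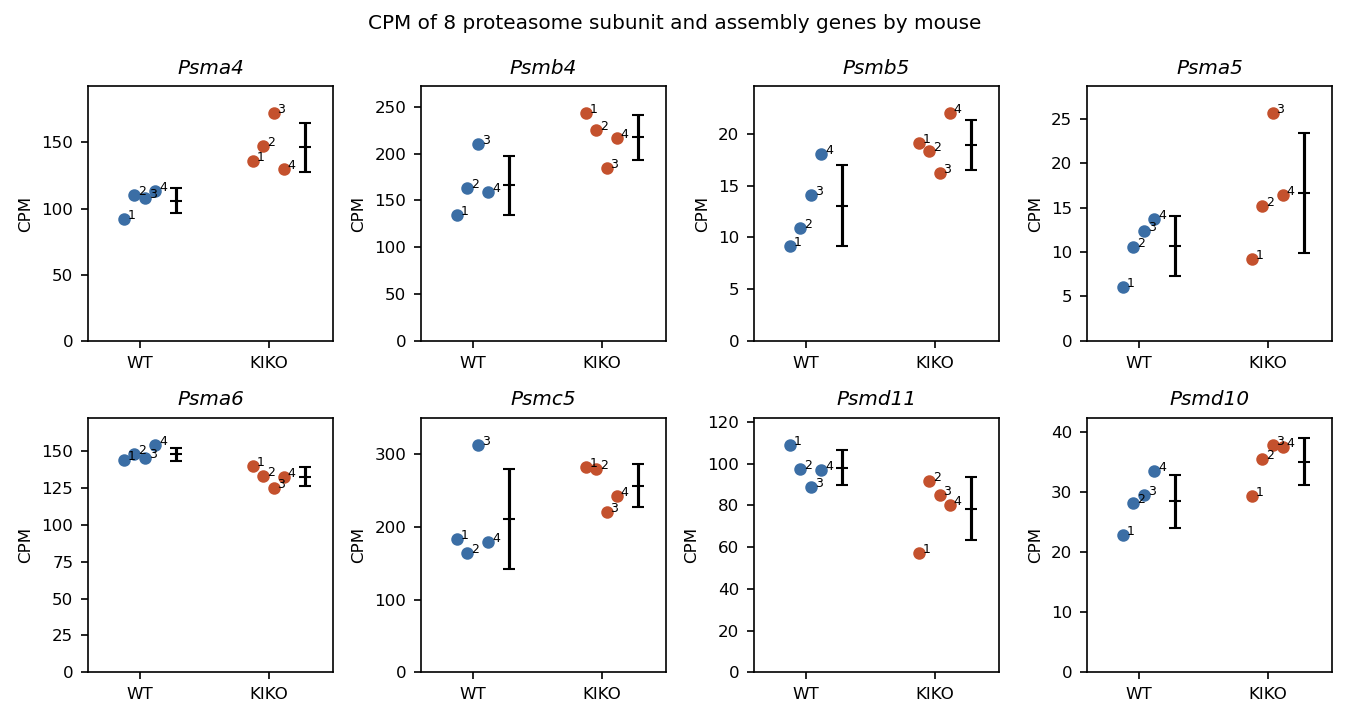
CPM (vertical axis, from 0) of 7 subunit genes and the chaperone gene *Psmd10* in WT and KIKO mice. Dots are mice with their numbers, and the line gives the mean and SD of the 4 mice. All KIKO mice lie above all WT mice for *Psma4* and below them for *Psma6*, with overlap in the other 6 genes, and *Psmc5* shows WT mouse 3 at 313 CPM, above all other mice.

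In the base of the regulatory particle, the 6 ATPases that unfold the substrate had log2 fold changes between -0.10 (*Psmc2*) and 0.29 (*Psmc5*). *Psmc3* had 240, 242, 322 and 305 CPM in WT mice 1 to 4 and 358, 324, 297 and 313 CPM in KIKO mice 1 to 4. The groups overlapped through WT mice 3 and 4 (log2 fold change 0.22 ± 0.13 SE, edgeR adjusted p = 0.428). The gene overlaps *Slc39a13* on the other strand. As for *Psmb7*, it is not known here whether the counts used strand, since the sources used here give 2 kits. *Psmc5*, named here after its values were seen, had 184, 164, 313 and 180 CPM in WT mice 1 to 4 and 282, 280, 221 and 243 CPM in KIKO mice 1 to 4. WT mouse 3 was the highest of all mice, and the log2 fold change was 0.29 (edgeR adjusted p = 0.465). Leaving out this mouse, the only WT mouse that overlapped with KIKO mice, necessarily widened the gap, to 0.54 (edgeR adjusted p = 0.0231, where 5.81% of all genes passed), and with length and GC corrected for as well the adjusted p was 0.0790.
*Psmd1* and *Psmd2*, the large scaffolds of the base, had log2 fold changes of -0.10 and 0.04. *Psmd4*, which encodes a receptor for ubiquitin chains, had 451, 374, 424 and 365 CPM in WT mice 1 to 4 and 452, 461, 330 and 417 CPM in KIKO mice 1 to 4. The groups overlapped over most of their range. The fitted log2 fold change was 0.04 ± 0.13 (SE, edgeR adjusted p = 0.908) and its sign changed with the scaling, to -0.03 with library totals only.

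The lid removes ubiquitin from the substrate. Its deubiquitinase gene *Psmd14* had 29.5, 49.1, 54.2 and 64.3 CPM in WT mice 1 to 4 and 42.2, 54.0, 61.6 and 52.7 CPM in KIKO mice 1 to 4. All KIKO mice lay within the range of the WT mice, and the log2 fold change was 0.10 ± 0.20 (SE, edgeR adjusted p = 0.847). *Psmd11* (ENSMUSG00000017428, chromosome 11 from 80428615 to 80473248, plus strand) encodes the lid subunit that braces the lid against the core particle, and it had the lowest log2 fold change of the 35 genes. Its level was 109, 97.2, 88.7 and 96.8 CPM in WT mice 1 to 4 and 57.1, 91.9, 84.9 and 80.0 CPM in KIKO mice 1 to 4. KIKO mouse 1 was the lowest and KIKO mouse 2 lay above WT mouse 3. The estimated log2 fold change was -0.32 ± 0.15 (SE, edgeR adjusted p = 0.290) and stayed between -0.40 and -0.20 in the 19 alternatives. The other lid genes *Psmd3*, *Psmd6*, *Psmd7*, *Psmd8*, *Psmd12* and *Psmd13* had log2 fold changes from -0.10 (*Psmd13*) to 0.23 (*Psmd6*). Without WT mouse 3, which had the highest WT level of both, these were 0.09 for *Psmd13* and 0.37 for *Psmd6*.

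Of the 3 chaperones with a *Psmd* symbol, *Psmd10*, which encodes gankyrin, had 22.8, 28.2, 29.5 and 33.5 CPM in WT mice 1 to 4 and 29.4, 35.6, 37.9 and 37.5 CPM in KIKO mice 1 to 4. KIKO mouse 1 lay among the WT mice and the other KIKO mice above them (log2 fold change 0.30 ± 0.15 SE, edgeR adjusted p = 0.35). *Psmd5* had 9.51, 10.6, 12.4 and 16.7 CPM in WT mice 1 to 4 and 15.5, 9.99, 21.4 and 19 CPM in KIKO mice 1 to 4, with overlapping groups and a log2 fold change of 0.44 ± 0.25 (SE, edgeR adjusted p = 0.403). *Psmd9* had a log2 fold change of -0.11. Of the 8 assembly chaperone genes found in the table, these 3 included, none passed, 4 lay above 0 and their median was 0.08. *Psmg4*, of the chaperones that build the alpha ring, had 11.7, 14.5, 14.1 and 17.1 CPM in WT mice 1 to 4 and 17.2, 19.6, 20.1 and 23.1 CPM in KIKO mice 1 to 4. Every KIKO mouse was above every WT mouse, if barely, as in 3.89% of all genes tested. Its log2 fold change was 0.48 ± 0.18 (SE, edgeR adjusted p = 0.202). *Psmg1*, of the same family, had 17.1, 13.9, 14.1 and 13.4 CPM in WT mice 1 to 4 and 8.58, 9.59, 13.9 and 11.1 CPM in KIKO mice 1 to 4. Only KIKO mouse 3 lay among the WT mice, with a log2 fold change of -0.43 ± 0.21 (SE, edgeR adjusted p = 0.317).

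Mice of 1 genotype differed in the subunit genes together. For each mouse, the median over the core genes of the log2 CPM minus the gene's mean was -0.40, -0.19, 0.11 and -0.01 in WT mice 1 to 4 and 0.13, 0.08, 0.07 and 0.12 in KIKO mice 1 to 4. WT mouse 1 was the lowest WT mouse in 14 of the 15 core genes and 12 of the 20 regulatory particle genes, and in 27.9% of all genes tested, and WT mouse 3 lay within the KIKO range of these medians. In the regulatory particle the medians were -0.17, -0.12, 0.09 and 0.09 in WT mice 1 to 4 and 0.05, 0.08, -0.04 and 0.03 in KIKO mice 1 to 4, so the groups overlapped. The rho of level and transcript length was 0.259, 0.244, -0.107 and 0.110 in WT mice 1 to 4 and -0.162, -0.157, -0.0784 and -0.212 in KIKO mice 1 to 4, and its part in these medians was not tested beyond the length and GC correction. Leaving out WT mouse 1 lowered the core median log2 fold change from 0.21 to 0.12, and that of the regulatory particle from 0.04 to -0.03. Leaving out WT mouse 3 raised them to 0.27 and 0.08.

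**Figure D3:**
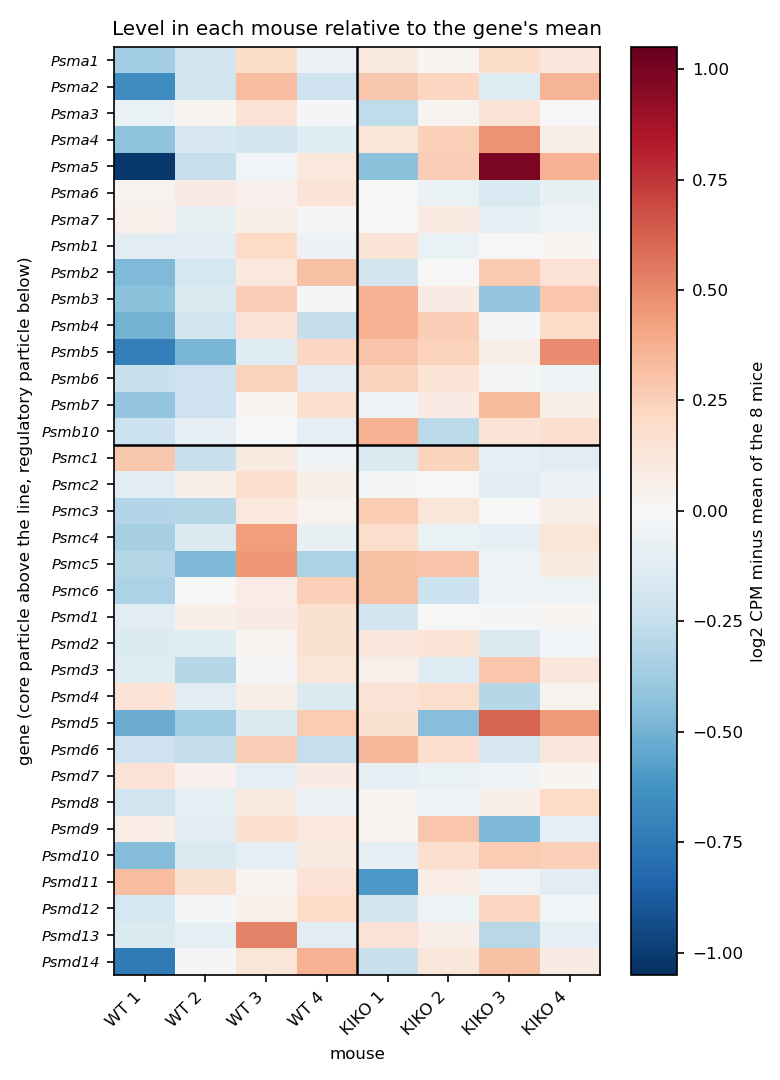
Level of the 35 tested genes (rows) in each mouse (columns) as log2 CPM minus the gene's mean over the 8 mice, in color from blue (below) to red (above). The column of WT mouse 1 is mostly blue above the horizontal line, which separates the core from the regulatory particle, with 2 of 15 core genes above their mean there and 12 of 15 in WT mouse 3.

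**Figure D4:**
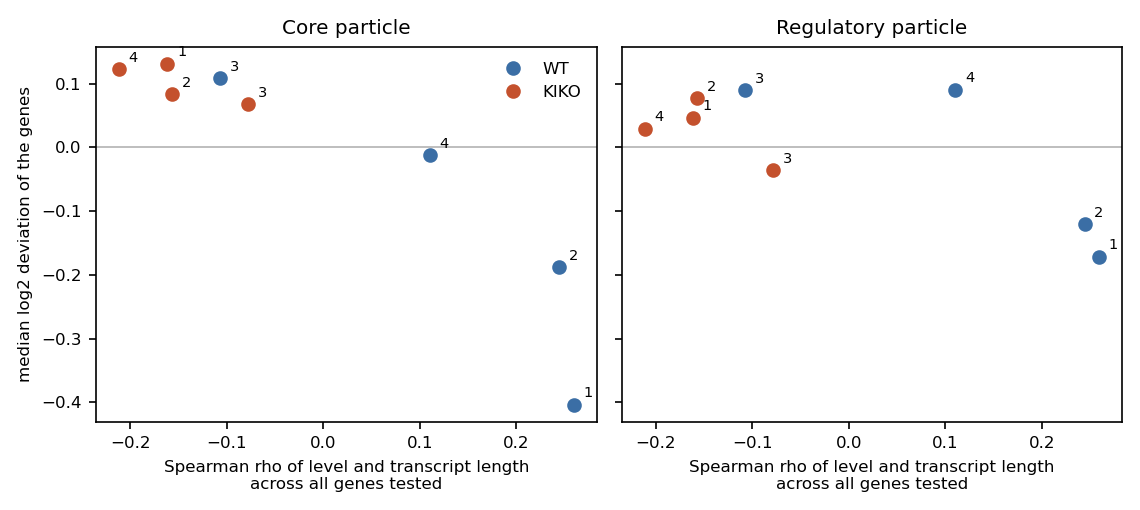
Median log2 deviation of the core genes (left) and regulatory particle genes (right) in each mouse (vertical axis) against that library's Spearman's rho of level and transcript length over all genes tested (horizontal axis). Dots are mice with their numbers. In the left panel WT mice 1 and 2 lie at the lower right (-0.40 and -0.19) and WT mouse 3 lies among the KIKO mice.

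Without WT mouse 3, 3 core genes (*Psma2*, *Psma4* and *Psmb4*) and 1 regulatory particle gene (*Psmc5*) passed, all higher in KIKO mice, where 5.81% of all genes tested did and 2.53% were higher. In this fit 7 core and 4 regulatory particle genes were at an unadjusted p under 0.05, against 22.9% of all genes, and 13 of 15 core and 13 of 20 regulatory particle genes lay above 0, against 49.5% of all genes. When WT mouse 3 was left out and length and GC content were corrected for as well, which was chosen after the data were examined, none of the 35 passed: the adjusted p was 0.0618 for *Psma2*, 0.119 for *Psma4*, 0.101 for *Psmb4* and 0.0790 for *Psmc5* (edgeR).

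Genes around the proteasome were read from 5 lists with 46 genes tested, members included, and none passed in either direction. At an unadjusted p under 0.05 there were 10 of 46, 5 higher and 5 lower, where 7.13% of all genes were higher and 9.06% lower at such a p. The groups did not overlap in 3 genes with KIKO higher and 3 with KIKO lower, where 3.89% and 4.56% of all genes did not. Of 8 genes of the immunoproteasome, its activators and the inhibitor, 6 lay above 0, with a median log2 fold change of 0.14. *Psmb8*, which takes the place of *Psmb5* in the immunoproteasome, had 42.2, 56.9, 35.5 and 46.2 CPM in WT mice 1 to 4 and 62.7, 46.4, 68.7 and 63.9 CPM in KIKO mice 1 to 4. KIKO mouse 2 lay among the WT mice and the others above them (log2 fold change 0.42 ± 0.16 SE, edgeR adjusted p = 0.219). *Psmb9*, which takes the place of *Psmb6*, had 12.7, 19.7, 9.37 and 9.71 CPM in WT mice 1 to 4 and 18.2, 11.6, 19.8 and 16.1 CPM in KIKO mice 1 to 4, with overlapping groups (log2 fold change 0.35 ± 0.25 SE, edgeR adjusted p = 0.522). *Psme1* and *Psme2* encode the subunits of the activator induced by interferon. *Psme1* had 143, 128, 144 and 154 CPM in WT mice 1 to 4 and 136, 163, 159 and 153 CPM in KIKO mice 1 to 4 (log2 fold change 0.10, edgeR adjusted p = 0.710, and -0.01 once corrected for length and GC). *Psme2* had 62.5, 70, 60.9 and 70.7 CPM in WT mice 1 to 4 and 85.5, 69.1, 74.5 and 71.2 CPM in KIKO mice 1 to 4 (log2 fold change 0.19, edgeR adjusted p = 0.486). In both genes the groups overlapped. *Psme4*, which encodes a nuclear activator, had 74.8, 82.7, 83.0 and 88.4 CPM in WT mice 1 to 4 and 60.7, 75.1, 79.4 and 66.8 CPM in KIKO mice 1 to 4, again with overlap (log2 fold change -0.22 ± 0.13 SE, edgeR adjusted p = 0.406). The macrophage markers, of which 8 of 9 lay above 0, summed to 1505 to 1759 CPM in WT mice and to 1906 to 2262 CPM in KIKO mice. Among these 9 the largest difference of means was that of *Lyz2*, at 341 CPM in the WT and 660 CPM in the KIKO group. The part of macrophages in the levels of the immunoproteasome genes was not tested.

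All 9 tested genes of the list on the control of proteasome transcription lay below 0 in edgeR with TMM scaling, with a median log2 fold change of -0.27, and none passed. Of all 11080 genes tested 5647 lay below 0. The 9 were *Nfe2l1*, *Nfe2l2*, *Ddi2*, *Ngly1*, *Vcp*, *Mafg*, *Mafk*, *Keap1* and *Bach1*. The list does not set genes that raise transcription apart from genes that lower it. The list had 4 genes at an unadjusted p under 0.05, all lower (*Vcp*, *Mafg*, *Ddi2* and *Bach1*), where the share of all genes on this side was 9.06%. For *Ddi2* and *Bach1* WT mouse 1 was the highest of all mice, at 101 and 51 CPM. The other WT mice (49.5 to 60.9 and 22.8 to 33.6 CPM) overlapped with the KIKO mice (39.8 to 58.3 and 21.5 to 28.4 CPM). *Nfe2l1* itself had 180, 171, 159 and 189 CPM in WT mice 1 to 4 and 145, 176, 209 and 145 CPM in KIKO mice 1 to 4. The groups overlapped, and the log2 fold change was -0.05 ± 0.14 (SE, edgeR adjusted p = 0.884), with the other sign (0.005) after the length and GC correction. *Vcp*, which encodes the ATPase that pulls NRF1 and other proteins out of the endoplasmic reticulum, had 529, 545, 475 and 526 CPM in WT mice 1 to 4 and 423, 443, 430 and 428 CPM in KIKO mice 1 to 4. All KIKO mice lay below all WT mice (log2 fold change -0.27 ± 0.11 SE, edgeR adjusted p = 0.247). *Mafg*, a partner of NRF1 and NRF2 on DNA, had 78.9, 70.6, 68.3 and 71.3 CPM in WT mice 1 to 4 and 50.8, 56.3, 67.1 and 58.9 CPM in KIKO mice 1 to 4, again without overlap (log2 fold change -0.31 ± 0.13 SE, edgeR adjusted p = 0.239). Of all genes tested 4.56% did not overlap on this side. Transcripts in this list have a median length of 3614 bases, and after the length and GC correction its median was -0.25.

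Of the 6 genes of ubiquitin and its activating enzymes none passed, and 4 lay above 0 with a median of 0.23. *Rps27a*, which encodes ubiquitin fused to a ribosomal protein and may share reads with processed copies, had 79.6, 96.0, 98.7 and 133 CPM in WT mice 1 to 4 and 141, 135, 156 and 142 CPM in KIKO mice 1 to 4. All KIKO mice lay above all WT mice, as in 3.89% of all genes tested, by a small margin over WT mouse 4. The fitted log2 fold change was 0.49 ± 0.15 (SE, edgeR adjusted p = 0.113), and it passed in DESeq2 (adjusted p = 0.0397). Of 15 other subunits and proteasome-associated genes, 7 lay above 0, with a median of -0.03. Among them *Ubqln1*, which encodes a shuttle that brings ubiquitylated proteins to the proteasome, had 113, 133, 163 and 149 CPM in WT mice 1 to 4 and 210, 175, 176 and 180 CPM in KIKO mice 1 to 4. All KIKO mice lay above all WT mice, as in 3.89% of all genes tested (log2 fold change 0.41 ± 0.13 SE, edgeR adjusted p = 0.148). Without WT mouse 3, the highest WT mouse, *Ubqln1* passed (edgeR adjusted p = 0.0391), where 5.81% of all genes did. *Ube3a*, which encodes a ubiquitin ligase that binds the proteasome, had 210, 204, 197 and 201 CPM in WT mice 1 to 4 and 170, 177, 179 and 170 CPM in KIKO mice 1 to 4. All KIKO mice lay below all WT mice, as in 4.56% of all genes tested. The estimated log2 fold change was -0.22 ± 0.11 (SE, edgeR adjusted p = 0.306), and the length and GC correction brought it to -0.04.

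For context, 2 other complexes of many subunits were read from the same test. The COP9 signalosome, built on the same plan as the lid, had no gene of 10 past the threshold and a median log2 fold change of 0.09. The CCT chaperonin, which folds actin and tubulin, had none of 7 and a median of 0.11. The per-mouse medians of the COP9 genes were -0.11, -0.16, 0.11 and 0.03 in WT mice 1 to 4 and 0.07, 0.10, 0.08 and -0.05 in KIKO mice 1 to 4. WT mouse 1 was below 0 and WT mouse 3 above it in the medians of the core particle, the regulatory particle, COP9 and CCT.

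**Figure D5:**
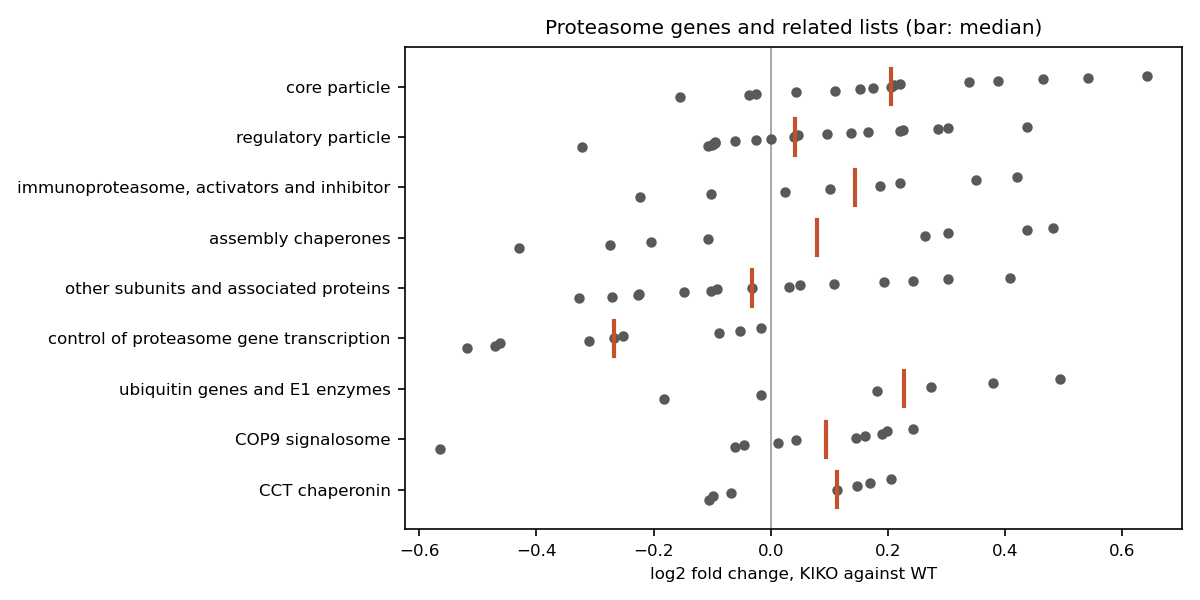
Log2 fold change of KIKO against WT mice (horizontal axis) for each tested gene (dots) of the core particle, the regulatory particle and 7 related lists (rows), with the median of each as a bar. The bar lies at 0.21 for the core particle, 0.04 for the regulatory particle and -0.27 for the list on the control of proteasome transcription, and no dot passed the test.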

How the data were processed

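RNA from vWAT of 4 WT and 4 KIKO mice was sequenced, 1 library per mouse. Per the labels, the authors trimmed the reads with Trimmomatic, aligned them to GRCm38 with HISAT2 and named DESeq2. The annotation release and the strand setting are not given in the sources used here, and the paper and the labels name different kits and sequencers, so levels were not compared between genes. The authors deposited raw counts per gene and a table of log2 normalised values. The log2 values served 1 alternative only.

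Groups and mouse numbers came from the sample titles. Counts were tested with edgeR 4.0.16 in R 4.3.3 (TMM, filterByExpr, quasi-likelihood test, KIKO against WT, no covariate). The total count was 2602189 to 3478539 per library, which limits the precision for genes with few counts. The p-values weigh the difference between the groups against the spread between these mice. CPM are counts relative to the TMM-scaled library size. DESeq2 1.42.0, limma 3.58.1 (voom and trend), other scalings and filters, a length and GC offset (mgcv 1.9.3), a replicate block and leaving out each mouse were alternatives. The test was also run on simulated counts with the same dispersion (spread between mice) for every gene. These had no length trend and no outlying mouse, so that run does not check the test for such features. Transcript lengths and positions came from GENCODE M21, promoters from RefSeq.

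The subunit genes and the lists were chosen with earlier results of these data known. Mouse by mouse values are given for the 4 genes of each particle with the smallest p, the catalytic subunits, *Psmd4*, *Psmd14*, *Psmb8*, *Psmb9*, *Psme1*, *Psme2*, *Nfe2l1* and the 2 genes of each related list with the smallest p. Of 112 listed names 110 were found in the table (not *Paaf1* and *Cct6a*). Of the genes this rule names, the targeted gene and 1 gene of the ubiquitin list are not reported here.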

Additional observations from a re-analysis of the deposited data

Results flagged for a closer look

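In 6 of the 100 gene and group combinations tested for a lone mouse among 4, 1 mouse stood apart by Dixon's criterion, which chance meets in about 1 of 20. WT mouse 3 was the high one in 4 of them, with 264 CPM of *Psmb1* (210 to 218 in the other WT mice), 313 CPM of *Psmc5* (164 to 184), 82.3 CPM of *Psmd6* (57.5 to 59.0) and 368 CPM of *Psmd13* (230 to 239). KIKO mouse 2 had 626 CPM of *Psmc1* (479 to 502 in the other KIKO mice), and KIKO mouse 1 had 210 CPM of *Ubqln1* (175 to 180). Outside the genes tested, *Psma8*, the alpha subunit of male germ cells, had 11 counts over all libraries, at most 3 in 1 library, and *Psmc3ip* had 20 counts, 1 to 4 in each library. Neither had enough counts to be compared between the groups.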

How the results depend on the processing

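The median log2 fold change of the core stayed above 0 under every alternative, at 0.11 with the length and GC correction and 0.12 to 0.27 with 1 mouse left out. That of the regulatory particle did not keep its sign (-0.03 with library totals, -0.03 with the length and GC correction, -0.03 to 0.08 with 1 mouse left out). These shifts were within 1 SD of the mouse medians, pooled within the genotypes (0.159 for the core and 0.103 for the regulatory particle). This SD lies below the core median of 0.21 and above the regulatory particle median of 0.04. It is a spread of single mice and no error of a difference between groups. In the core the mouse medians ran from -0.40 to 0.11 in WT and from 0.07 to 0.13 in KIKO mice. The count of subunit genes past the threshold stayed at 0 but for DESeq2 (1 core gene) and for leaving out 1 mouse (0 to 3 core and 0 to 1 regulatory particle genes, the highest without WT mouse 3). Of the related genes, 1 passed in DESeq2, 0 to 2 with 1 mouse left out, and 1 without WT mouse 3 with the length and GC correction. Over all genes, 75 passed, against 382 with no filter, 284 in DESeq2, 40 in limma-voom, 45 in limma-trend, 34 with the length and GC correction and 316 with that correction and without WT mouse 3. Scaling by library totals gave 18 higher and 49 lower, against 31 and 44. With 1 mouse left out there were 0 to 654, namely 48, 0, 654 and 0 without WT mice 1 to 4 and 4, 19, 18 and 0 without KIKO mice 1 to 4. The counts of 0 in edgeR stand beside 1344, 1533 and 1328 genes at an unadjusted p under 0.05. Mouse numbers did not pair the libraries (correlations of same-numbered mice -0.15, -0.13, -0.11 and 0.03), and with the replicate block 0 genes passed, 1427 were at an unadjusted p under 0.05 and no subunit gene passed. The sign of the log2 fold change turned under at least 1 alternative in 13 of the 35 subunit genes, and in 4065 of all 11080 genes tested, a similar share. Among the genes given mouse by mouse under the naming rule it turned for *Psmd14* with 1 mouse left out (-0.085 without WT mouse 1, to 0.25), for *Psmd4* with library totals (-0.034), with the length and GC correction (-0.028), that without WT mouse 3 (-0.023), and without WT mouse 4 (-0.0033), KIKO mouse 1 (-0.0013) or KIKO mouse 2 (-0.012, against 0.14 without KIKO mouse 3), for *Nfe2l1* with the length and GC correction (0.0050) and without KIKO mouse 1 (0.017) or 4 (0.016, against -0.17 without KIKO mouse 3), and for *Psme1* with that correction (-0.014). With the correction and without WT mouse 3 it turned for *Psme1* (-0.039), *Psme2* (-0.015) and *Ube3a* (0.023). The cause was not tested.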
